A study of Drosophila melanogaster with 24 samples.

Results

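Chromatin accessibility in the brains of H3.3null flies was compared with that of Oregon-R flies at day 1 of adult life. The comparison takes 6 of the 24 samples of the study, 3 H3.3null and 3 OreR, chosen by their genotype and age labels, and covers all 11145 peaks of the deposited table. ATAC-seq was used, in which a transposase inserts sequencing adapters into open DNA, so that the read count of a peak rises with its accessibility. All samples are brains of adult female Drosophila melanogaster, and the study also holds H3.3H3.2 and H3.3S31A flies and a day 10 sample of each genotype, 3 libraries a group. OreR, titled as wild type for H3.3, is a laboratory strain. From their names, H3.3null lacks the replacement histone H3.3, the replicative histone H3.2 takes its place in H3.3H3.2, and H3.3S31A flies have alanine for a serine of H3.3. The labels do not give the alleles, the stock backgrounds or any batch. No group pairs an altered stock's background with wild-type H3.3, so loss of H3.3 and the rest of the stock cannot be told apart in this comparison. The extraction text of the labels names pools of 8 brains, but in a passage on RNA isolation that contradicts the genomic DNA given as the molecule.

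H3.3 is a histone H3 variant that is placed on DNA outside of replication, mainly at transcribed genes, enhancers and other sites of histone turnover. In post-mitotic cells such as neurons, which no longer replicate DNA, it is the main source of new H3. In Drosophila it is made from a pair of genes, His3.3A and His3.3B, while replicative H3 comes from a tandem histone gene cluster.

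The 6 libraries held between 3501589 and 4486755 counts in peaks, with a median of 252 counts per peak. Normalised read counts are given below as CPM, counts per 1000000 counts in peaks after TMM scaling. Among replicates, Pearson's r of log2 values was between 0.956 and 0.982 for OreR and between 0.978 and 0.981 for H3.3null. It was 0.888 to 0.906 between the genotypes. The lower OreR values were those of replicate 1, at 0.965 and 0.956, against 0.982 between replicates 2 and 3. The labels do not say that replicates come from separate animals, so p-values measure the spread between these libraries. For the tissue label, 12 neuron markers were examined, of which 11 held peaks. Their summed level was 5281 to 5559 CPM in OreR and 5516 to 5737 CPM in H3.3null, and was not set against another tissue. Of their 46 peaks, 4 were higher in H3.3null (8.70%, and 2 without its replicate 2) and 0 lower. Over all peaks the shares were 14.1% higher and 10.6% lower. Reads in a peak come from all cells of the brain, and a change in cell make-up cannot be told apart from a change per cell.

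The targeted genes were examined first. His3.3B held 3 peaks. The peak inside the gene at X:9154788-9155165 read 48.4, 44.6 and 36.6 CPM in the 3 OreR libraries and 14.4, 9.66 and 12.3 CPM in the 3 H3.3null libraries, without overlap, and the log2 fold change was -1.83 ± 0.18 (SE; adjusted p = 7.14e-10, edgeR's quasi-likelihood test with Benjamini-Hochberg adjustment over all peaks, as for every adjusted p below). This peak was at 45.2 ± 5.73 CPM in H3.3S31A and 48.2 ± 3.29 CPM in H3.3H3.2 (mean ± SD, n = 3). The His3.3B peak at X:9152177-9152538 fell by 0.35 on the log2 scale (adjusted p = 0.0103), a call that was lost without OreR replicate 2 (log2 fold change -0.24, adjusted p = 0.133). The broad peak at X:9155649-9156872, centred 409 bp from a gene end, read 227, 196 and 193 CPM in OreR and 224, 234 and 228 CPM in H3.3null (adjusted p = 0.211). The peak of His3.3A at 2L:5054989-5055227 overlapped between groups, with 62.7, 49.3 and 51.7 CPM in OreR and 56.6, 54.8 and 47.6 CPM in H3.3null (adjusted p = 0.865). A second peak overlapping His3.3A, at 2L:5055623-5055921 and nearer to Nepl3, was higher, at 18.01, 26.8 and 23.7 CPM in OreR and 57.9, 43.8 and 41.4 CPM in H3.3null (log2 fold change 1.05 ± 0.17, SE; adjusted p = 8.43e-06). Peak counts show accessibility and not the alleles themselves.

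At an adjusted p under 0.05, 2757 of 11145 peaks (24.7%) differed between H3.3null and OreR at day 1, 1572 higher (14.1%) and 1185 lower (10.6%). Most differences were small. The median absolute log2 fold change of the called peaks was 0.53, 87.1% of them lay below a 2-fold change, and 198 higher and 158 lower peaks changed 2-fold or more. The 3 libraries of one genotype lay entirely above those of the other in 94.1% of called peaks and in 37.3% of all peaks. Counts were also summed over the peaks of each gene, a peak being given to the gene it overlaps or lies within 500 bp of. CPM of such sums are relative to the counts in genes and so run higher than those of single peaks. On these sums 860 of 4564 genes (18.8%) differed, 513 higher (11.2%) and 347 lower (7.60%).

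Repeats, the neighbourhoods of the altered genes, runs of calls and extreme shifts were set apart before genes and site classes were described. Single marker genes of stocks, such as w and cn, were not, and they remain in the counts and in the largest folds. They are 113 peaks overlapping repeated gene families, 84 peaks within 250 kb of His3.3A or His3.3B, 516 peaks in chromosomal runs where at least 15 of 20 successive peaks were called one way, and 9 peaks with an absolute log2 fold change of 3 or more. Some peaks met more than 1 of these criteria, and 719 peaks were set apart in all, of which 316 were called higher and 169 lower. Among the other 10426 peaks, 2272 were called (21.8%), 1256 higher (12%) and 1016 lower (9.74%), with 154 higher and 114 lower at 2-fold or more.

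**Figure D1:**
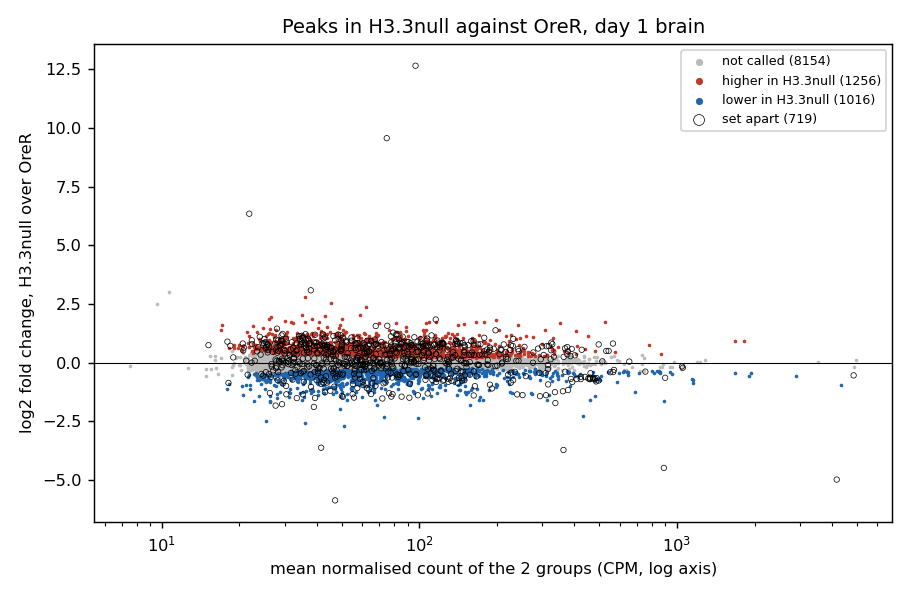
Log2 fold change of each peak in H3.3null over OreR at day 1 (vertical axis) against the mean normalised count of both groups (horizontal log axis, CPM), with 1 point per peak. Red points are the 1256 higher and blue points the 1016 lower calls among peaks not set apart, grey points were not called, and black open circles are the 719 peaks set apart, which hold the extremes in both directions.

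The share of peaks called differed between kinds of site. Peaks inside genes, the largest class, held the most calls by number, but the share higher was largest outside genes within 2 kb. The share lower was largest beyond 2 kb. No test between the classes was made. Peaks centred within 500 bp of a gene end, which include start sites, were called least often: 380 of 3991 were higher (9.52%) and 228 lower (5.71%), the latter 146 without H3.3null replicate 1. Peaks deeper inside genes were higher in 646 of 4456 cases (14.5%) and lower in 430 (9.65%). Outside genes but within 2 kb of one, 112 of 646 peaks were higher (17.3%) and 55 lower (8.51%). Farther from genes the balance turned, with 118 of 1333 peaks higher (8.85%) and 303 lower (22.7%), and a median log2 fold change of -0.13. Leaving out 1 library moved this lower count to between 207 (OreR replicate 3) and 378 (OreR replicate 1). The low share of higher peaks in this class depended on setting runs and other peaks apart. With them included, 229 of 1604 were higher (14.3%) and 409 lower (25.5%), beside 14.1% and 10.6% over all peaks. Strand is not in the gene table, and both ends of a gene were therefore counted together.

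The losses far from genes were mostly in the pericentromeric parts of the arms, which are rich in repeats and packed as heterochromatin. Of 1276 pericentromeric peaks not set apart, 379 were lower (29.7%) and 78 higher (6.11%), with a median log2 fold change of -0.21, against -0.01 over all peaks not set apart. Runs were set apart by their calls, which shapes these shares: over all 1744 pericentromeric peaks, 510 were lower (29.2%) and 329 higher (18.9%). The balance depended on this on 2R, where 277 of all 645 pericentromeric peaks were higher (42.9%) and 77 lower (11.9%), with a median of 0.17. Among peaks not set apart, 144 of 394 peaks on 3L, 125 of 381 on 3R, 29 of 100 on 2L, 68 of 336 on 2R and 13 of 65 on X were lower. Within this region, peaks at gene ends were the exception, with 6 of 91 higher and 4 lower. Outside it, peaks beyond 2 kb of a gene were higher in 79 and lower in 77 of 647 cases, in near equal numbers. Elsewhere on the arms, telomeric ends apart, 1131 of 8894 peaks were higher (12.7%) and 620 lower (6.97%), the latter 411 without H3.3null replicate 1. The fourth chromosome, a small chromosome whose genes lie within heterochromatin, held 77 peaks, 19 of them higher (24.7%) and 6 lower (7.79%).

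**Figure D2:**
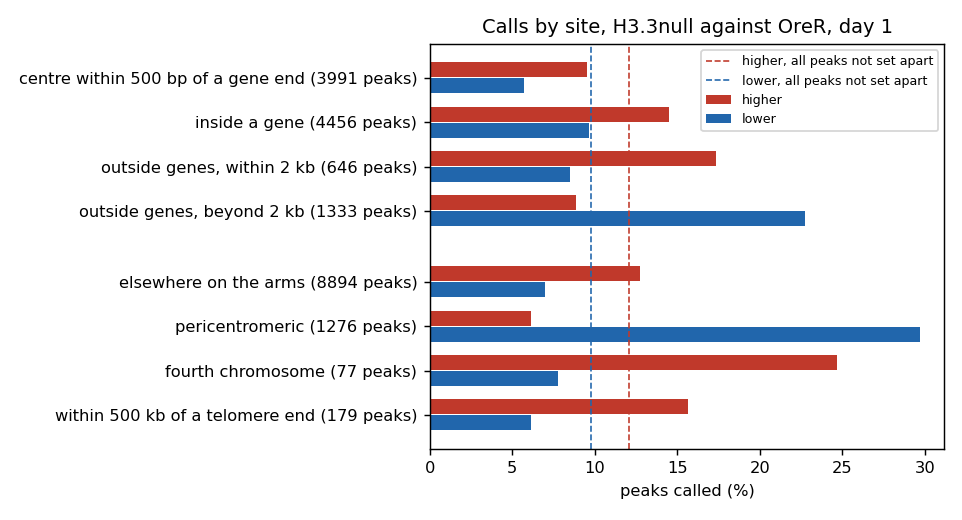
Share of peaks called higher (red) or lower (blue) in H3.3null than in OreR at day 1, in percent, by distance to a gene (upper 4 classes) and by chromosomal region (lower 4 classes), for peaks not set apart. Dashed lines are the shares over all peaks not set apart, 12% higher and 9.74% lower, and the pericentromeric and gene-distant classes stand beyond the blue line.

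Peak width also separated the calls. Outside the pericentromeric regions, peaks over 1000 bp wide were higher in 148 of 669 cases (22.1%) and lower in 87 (13%), while those under 300 bp were higher in 214 of 2317 (9.24%) and lower in 105 (4.53%). Wide peaks hold more reads, and the part of read depth in these shares was not tested. In the lowest quintile of mean read count, 12.5% of the peaks outside those regions were higher and 6.32% lower. In the highest quintile the shares were 15.4% and 6.74%. Genes spanning over 50 kb had 225 of 1398 peaks higher (16.1%), those under 5 kb 236 of 2241 (10.5%), and the shares called lower were 6.44% and 6.43%. Peaks assigned to long non-coding RNA genes outside the pericentromeric regions were higher in 53 of 250 cases (21.2%) and lower in 19 (7.60%).

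In some genes accessibility differed at many peaks. With set-apart peaks left out, 787 genes held at least 3 peaks, and 110 of them had at least 3 calls. All calls were higher in 53 of these genes, all were lower in 6, and 51 had calls both ways. The 6 genes with the most calls in each direction are shown in full in the plot of every peak by gene.

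Hr4, a nuclear receptor of the ecdysone response, had 13 of its 21 peaks higher in H3.3null and 0 lower. The peak with its largest fold, inside the gene at X:1973391-1973998, read 48.1, 51.2 and 50.7 CPM in the OreR libraries and 130.2, 123 and 129.9 CPM in the H3.3null libraries. The groups did not overlap, the log2 fold change was 1.35 ± 0.10 (SE; adjusted p = 9.28e-13), and H3.3H3.2 and H3.3S31A were at 59.6 ± 1.59 and 57.1 ± 5.61 CPM (mean ± SD, n = 3). At X:1988557-1989362 and X:1968583-1969778 the log2 fold changes were 0.84 ± 0.10 and 0.93 ± 0.10 (SE). In contrast, the peak at the gene end at X:1941784-1942002 had 34.3, 33.4 and 40.7 CPM in OreR and 32.6, 39.8 and 38.5 CPM in H3.3null, which overlap. Summed over the gene, Hr4 rose from 2276, 2465 and 2561 CPM to 3335, 3203 and 3329.9 CPM (log2 fold change 0.43 ± 0.04, SE; adjusted p = 8.99e-11 over all genes). At 2 of its peaks, X:1954937-1955330 and X:1962276-1962937, the log2 fold changes over OreR were 1.23 and 1.04 (H3.3H3.2) or 1.11 and 0.91 (H3.3S31A), beside 0.63 and 0.69 in H3.3null.

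Eip75B, an ecdysone-induced nuclear receptor that binds haem, had 10 of 27 peaks higher and 0 lower. Several of these calls were lost when 1 library was left out. For the peak that starts at 3L:17977937, the log2 fold change without H3.3null replicate 3 was 0.40 (adjusted p = 0.138). The largest difference was at 3L:17967074-17967508, with 30.9, 29.4 and 25.4 CPM in OreR and 72.3, 64.7 and 58.8 CPM in H3.3null (log2 fold change 1.19 ± 0.15, SE; adjusted p = 7.67e-08). The groups were clear of each other there, and the same peak was at 27.4 ± 3.74 CPM in H3.3S31A and 36.7 ± 3.74 CPM in H3.3H3.2. The median log2 fold change over its 27 peaks was 0.21.

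The gene ush encodes U-shaped, a zinc finger cofactor of GATA factors, and had 9 of 14 peaks higher. One of these calls, at the peak that starts at 2L:523037, was lost without OreR replicate 2 or 3 or without H3.3null replicate 1. The peak at 2L:507073-507498 rose from 24.5, 24.4 and 28.7 CPM to 73.8, 58.8 and 59.03 CPM (log2 fold change 1.30 ± 0.13, SE; adjusted p = 9.09e-10). The wide peak at 2L:514222-516178 rose from 135, 157 and 169 CPM to 304, 284 and 284 CPM, again without overlap (log2 fold change 0.92 ± 0.09, SE; adjusted p = 3.97e-10). Over the gene, ush summed to 982, 1145 and 1164 CPM in OreR and 1761, 1602 and 1700.2 CPM in H3.3null (adjusted p = 7.61e-13), beside 1172 ± 42.1 CPM in H3.3S31A and 1282 ± 7.97 CPM in H3.3H3.2.

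Ptp4E, a receptor tyrosine phosphatase, was higher at every one of its 8 peaks, from a log2 fold change of 0.47 to 1.28. The call at the peak that starts at X:4939005 was lost without OreR replicate 1 or without H3.3null replicate 1. At X:4955562-4956493, centred 111 bp from a gene end, the libraries read 82.2, 78.7 and 78.3 CPM in OreR and 196, 161 and 165 CPM in H3.3null (adjusted p = 3.29e-11), clear of each other. Its summed level was 419.8, 542 and 527 CPM in OreR and 953, 875 and 878 CPM in H3.3null, beside 514 ± 32.8 CPM in H3.3S31A and 618 ± 10.2 CPM in H3.3H3.2. For beat-Ib, a cell-surface protein of the Beat immunoglobulin family, 7 of 9 peaks were higher. Its peak at 2L:15914517-15915764 rose from 84.7, 92.7 and 90.5 CPM to 166, 151 and 165 CPM (log2 fold change 0.85 ± 0.09, SE; adjusted p = 9.48e-10). The 2 beat-Ib peaks that were not called included that at the gene end at 2L:15962366-15962595, at 28.1, 28.2 and 32.3 CPM and 26.04, 34.6 and 26.2 CPM. CG9328 had 7 of 8 peaks higher, and its summed level rose from 758, 776 and 771 CPM to 1193, 1155 and 1142 CPM (log2 fold change 0.60 ± 0.05, SE; adjusted p = 1.30e-13). The call at its peak that starts at 2L:20797581 was lost without OreR replicate 3 (log2 fold change 0.25, adjusted p = 0.223). That call was also lost without OreR replicate 2, without H3.3null replicate 1, 2 or 3, and with the 2 groups fitted alone. The CG9328 call at the peak that starts at 2L:20808457 was lost without H3.3null replicate 1.

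The 6 genes whose calls were all lower had fewer of them. CG40470, in the pericentromeric part of 3L, had 6 of 13 peaks lower. Its most open peak, at 3L:23848606-23849739, fell from 1216, 1327 and 1499 CPM in OreR to 432, 412 and 473 CPM in H3.3null (log2 fold change -1.62 ± 0.14, SE; adjusted p = 1.94e-11), and was at 594 ± 123 CPM in H3.3S31A and 539.6 ± 86.3 CPM in H3.3H3.2. The largest fold at this gene was at 3L:23930323-23930746, where OreR read 55.4, 61.9 and 67.98 CPM and H3.3null 7.84, 7.86 and 14.8 CPM. All 4 peaks of lncRNA:CR46268, on pericentromeric 2L, fell, and its summed level went from 391, 477 and 490.2 CPM to 186, 178 and 209 CPM (log2 fold change -1.24 ± 0.13, SE; adjusted p = 5.99e-07), beside 149 ± 31.4 CPM in H3.3S31A and 182 ± 13.8 CPM in H3.3H3.2. Gss1, a glutathione synthetase gene whose peaks also overlap CG6788 and CR32496, had all 3 peaks lower and summed to 534, 620.1 and 617 CPM in OreR and 415, 405 and 427 CPM in H3.3null (log2 fold change -0.51, adjusted p = 1.52e-06). It was lower still in the other genotypes, at 176 ± 14.05 CPM in H3.3S31A and 189 ± 12.5 CPM in H3.3H3.2. The Gss1 call at the peak that starts at X:17898822 was lost without OreR replicate 2 or without H3.3null replicate 1. CG41378 had 4 of 10 peaks lower, dpr8 3 of 9 (1 without OreR replicate 2 or without H3.3null replicate 1 or 3) and jing, a zinc finger transcription factor, 3 of 12. The jing call at the peak that starts at 2R:6518591 was lost without OreR replicate 2 or without H3.3null replicate 1. That of CG41378 at 2R:2811127 was lost without OreR replicate 3. The summed levels of CG41378 and dpr8 did not pass the test (log2 fold changes -0.24 ± 0.12 and -0.13 ± 0.06, SE; adjusted p = 0.174 and 0.131).

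**Figure D3:**
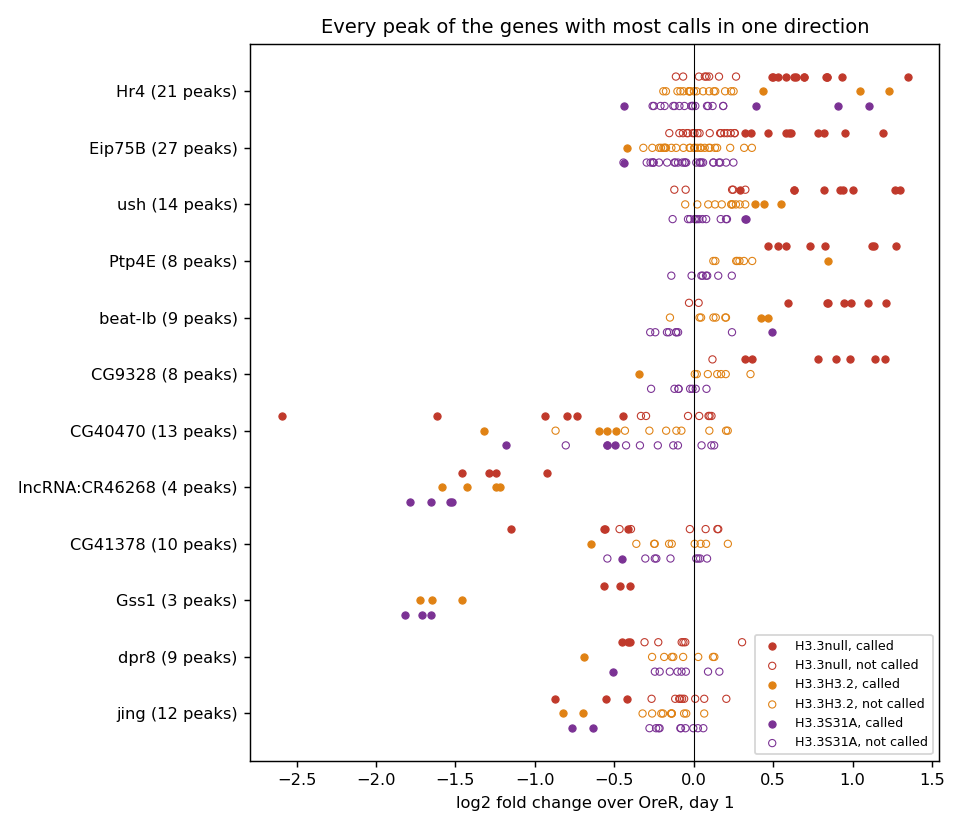
Log2 fold change over OreR at day 1 (horizontal axis) of each peak not set apart in the 6 genes with most calls higher and the 6 with most calls lower in H3.3null (rows), with 1 point per peak. Red is H3.3null, orange H3.3H3.2 and purple H3.3S31A, filled where called, and all 3 use the same OreR libraries. H3.3null points extend to 1.35 in Hr4 and 1.28 in Ptp4E, and all 4 peaks of lncRNA:CR46268 lie to the left of 0 in each genotype.

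Further genes with at least 3 calls, all higher, were picked out after their values were seen. Calls were made at 3 of 5 peaks of ph-p, a Polycomb group subunit, with a median log2 fold change of 0.31, at 3 of 5 peaks of chm, a histone acetyltransferase, with a median of 0.50, and at 5 of 13 peaks of Tet, a TET-family dioxygenase, with a median of 0.15. Mnt, a partner of Max that opposes Myc, had 7 of 19 peaks higher (median 0.24), pdm3, a POU-domain factor, 4 of 8 (median 0.45), and zfh2, a homeodomain factor on the fourth chromosome, 3 of 4 (median 0.44). Among cell-surface and neuronal genes, scrib, a polarity scaffold, had 5 of 8 peaks higher and a summed level of 856, 813 and 852 CPM in OreR and 1255, 1185 and 1202 CPM in H3.3null (log2 fold change 0.53 ± 0.05, SE; adjusted p = 2.02e-12). H3.3H3.2 was at 822 ± 5.85 CPM and H3.3S31A at 796 ± 24.3 CPM for scrib. Dscam1, a neuronal recognition molecule, had 6 of 9 peaks higher and summed to 853, 957 and 942 CPM and 1121, 1176 and 1211 CPM, but there H3.3H3.2 and H3.3S31A were also above OreR, at 1239 ± 73.7 and 1205 ± 50.05 CPM. Ace, the acetylcholinesterase gene, had 3 of 11 peaks higher, and pum, a translational repressor, 4 of 14.

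Of peaks not set apart, the 12 higher and 12 lower calls with the largest fold were taken among named protein-coding genes, 1 per gene, with at least 20 CPM in the higher group and no overlap between groups. The other genotypes are set against the same OreR libraries that served to pick these peaks, so likeness to H3.3null is partly built in. Among the 12 higher peaks, Loxl1, a lysyl oxidase-like enzyme, changed most. Its peak at 3R:31458005-31458389, centred 183 bp from a gene end, read 10.4, 9.01 and 7.66 CPM in OreR and 67.5, 57.9 and 62.4 CPM in H3.3null (log2 fold change 2.80 ± 0.27, SE; adjusted p = 7.88e-09). It was also above OreR in H3.3H3.2, at 36.5 ± 9.58 CPM, and in H3.3S31A, at 28.5 ± 11.6 CPM.

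Srp54k, the gene of a signal recognition particle subunit, lay 84 bp from the peak at 3L:5154861-5155737. That peak read 48.96, 57.4 and 55.3 CPM in OreR and 198, 164 and 172 CPM in H3.3null, a gap far wider than the spread within either group (log2 fold change 1.72 ± 0.11, SE; adjusted p = 4.16e-15). H3.3H3.2 was at 62.1 ± 1.76 CPM and H3.3S31A at 46.4 ± 5.001 CPM, with log2 fold changes over OreR of 0.20 and -0.21.

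For most of the other higher peaks the 2 other altered genotypes were above OreR as well. Ir41a, an ionotropic receptor gene, read 7.88, 10.9 and 13.4 CPM in OreR and 39.2, 44.2 and 43.4 CPM in H3.3null at 2R:4942692-4943130 (log2 fold change 1.96 ± 0.18, SE; adjusted p = 6.11e-11), with log2 fold changes over OreR of 2.27 (H3.3H3.2) and 2.20 (H3.3S31A). In the same order of genotypes, the log2 fold change of sordd2 was 1.84 ± 0.15 (SE) in H3.3null, beside 2.11 and 2.22. Usp2, a ubiquitin-specific protease gene, was at 1.72 ± 0.15 (SE), beside 1.71 and 1.66. RapGAP1, a GTPase-activating protein gene for Rap1, was at 1.60 ± 0.13 (SE), beside 1.42 and 1.59. The neuronal kekkon gene kek5 was at 1.48 ± 0.15 (SE), beside 1.35 and 1.47, and the flippase gene ATP8A at 1.60 ± 0.22 (SE), beside 1.59 and 1.80. Sytbeta, a synaptotagmin gene, read 16.6, 23.2 and 25.1 CPM in OreR and 74.8, 74.6 and 84.97 CPM in H3.3null at 3L:15048184-15048576 (log2 fold change 1.84 ± 0.21, SE; adjusted p = 9.14e-08), beside 1.57 and 1.21. Hyls1, a centriolar protein gene, was at 1.47 ± 0.16 (SE), beside 0.95 and 0.74.

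The kinase gene hppy was higher at all 5 of its peaks and was among the genes with the smallest p on summed counts. Its peak at 2R:19221224-19221541 rose from 17.7, 17.8 and 14.6 CPM to 57.4, 50.8 and 56.8 CPM (log2 fold change 1.72 ± 0.16, SE; adjusted p = 2.00e-10), and over the gene the sum rose from 347, 389 and 418 CPM to 822, 773 and 803 CPM (log2 fold change 1.05 ± 0.06, SE; adjusted p = 2.77e-17). H3.3H3.2 summed to 771 ± 21.2 CPM and H3.3S31A to 717 ± 36.8 CPM. The smallest of the 5 differences, at 2R:19178551-19178878, was no longer called without OreR replicate 1 (log2 fold change 0.29, adjusted p = 0.0608).

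Other genes with the smallest p on summed counts had both of their peaks higher and were closer to OreR in the other genotypes. The neighbouring non-coding genes lncRNA:CR44365 and lncRNA:CR44366 overlap, so their signals are not independent. At 2R:13577413-13578358, where both genes lie, OreR read 67.5, 84.6 and 78.3 CPM and H3.3null 263, 254 and 251 CPM (log2 fold change 1.73 ± 0.10, SE; adjusted p = 5.11e-16), with H3.3H3.2 at 119 ± 1.99 and H3.3S31A at 89.7 ± 6.65 CPM. At CG46304, the peak at 2L:18947224-18948173 read 76.2, 84.4 and 89.04 CPM in OreR and 303, 257 and 264 CPM in H3.3null (log2 fold change 1.72 ± 0.09, SE; adjusted p = 6.03e-17). At lncRNA:CR31840 the summed level rose from 248, 242 and 270.4 CPM to 581, 536 and 574 CPM (log2 fold change 1.15 ± 0.07, SE; adjusted p = 1.35e-17).

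Among the 12 lower peaks, Myo81F, a myosin gene in the pericentromeric part of 3R, fell most. Its peak at 3R:1564334-1565064 read 69.5, 98.9 and 97.9 CPM in OreR and 9.10, 9.43 and 21.7 CPM in H3.3null (log2 fold change -2.72 ± 0.40, SE; adjusted p = 5.71e-05). The groups were separate, although 1 H3.3null library stood above the other 2, and H3.3H3.2 and H3.3S31A were at 49.4 ± 25.6 and 59.7 ± 13.9 CPM. Alg-2, a calcium-binding protein gene also on pericentromeric 3R, lay 248 bp from a peak at 3R:3627938-3628573 that fell from 62.5, 97.9 and 73.96 CPM to 15.2, 22.01 and 22.4 CPM (log2 fold change -1.97 ± 0.39, SE; adjusted p = 0.00107). On pericentromeric 3L, lovit, a vesicular histamine transporter gene, was at -1.62 ± 0.27 (SE) with -0.39 (H3.3H3.2) and -0.22 (H3.3S31A). There, nvd, an oxygenase gene of ecdysteroid synthesis, fell from 316, 382 and 455 CPM to 159, 158 and 156 CPM (log2 fold change -1.29 ± 0.18, SE; adjusted p = 5.58e-06).

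The lower peaks on the rest of the arms were also below OreR in the other genotypes. In for, the foraging gene that encodes a cGMP-dependent protein kinase, the peak at 2L:3632167-3632459 fell from 45.6, 41.3 and 34.5 CPM to 8.34, 12.4 and 16.3 CPM (log2 fold change -1.70 ± 0.21, SE; adjusted p = 9.55e-08), with -0.90 (H3.3H3.2) and -1.41 (H3.3S31A). CASK, a synaptic scaffold gene, read 102, 109.5 and 92.1 CPM in OreR and 32.9, 31.9 and 34.4 CPM in H3.3null at 3R:21814591-21815072 (log2 fold change -1.61 ± 0.16, SE; adjusted p = 9.62e-10), with -1.55 (H3.3H3.2) and -1.78 (H3.3S31A). Of the 12 peaks of CASK this was the only 1 lower, while 3 were higher, and their median log2 fold change was 0.20. Tdg, a thymine DNA glycosylase gene on the fourth chromosome, fell from 246, 250.4 and 270.5 CPM to 73.3, 97.3 and 82.7 CPM at 4:545291-546437 (log2 fold change -1.60 ± 0.14, SE; adjusted p = 1.50e-10), with means of 52.9 ± 8.33 CPM for H3.3S31A and 69.1 ± 4.86 CPM for H3.3H3.2. The cn peak (-1.66) is described with the eye colour genes. The remaining 4 of these peaks were at IntS1, an Integrator subunit gene (-1.43), Fs, the follistatin gene (-1.29), mRpL37, a mitochondrial ribosomal protein gene (-1.28), and Cad89D, a cadherin gene (-1.27), all log2 fold changes. Against the same OreR libraries each was called lower in both other genotypes too, the smallest difference being -0.56 (log2) at mRpL37 in H3.3H3.2.

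**Figure D4:**
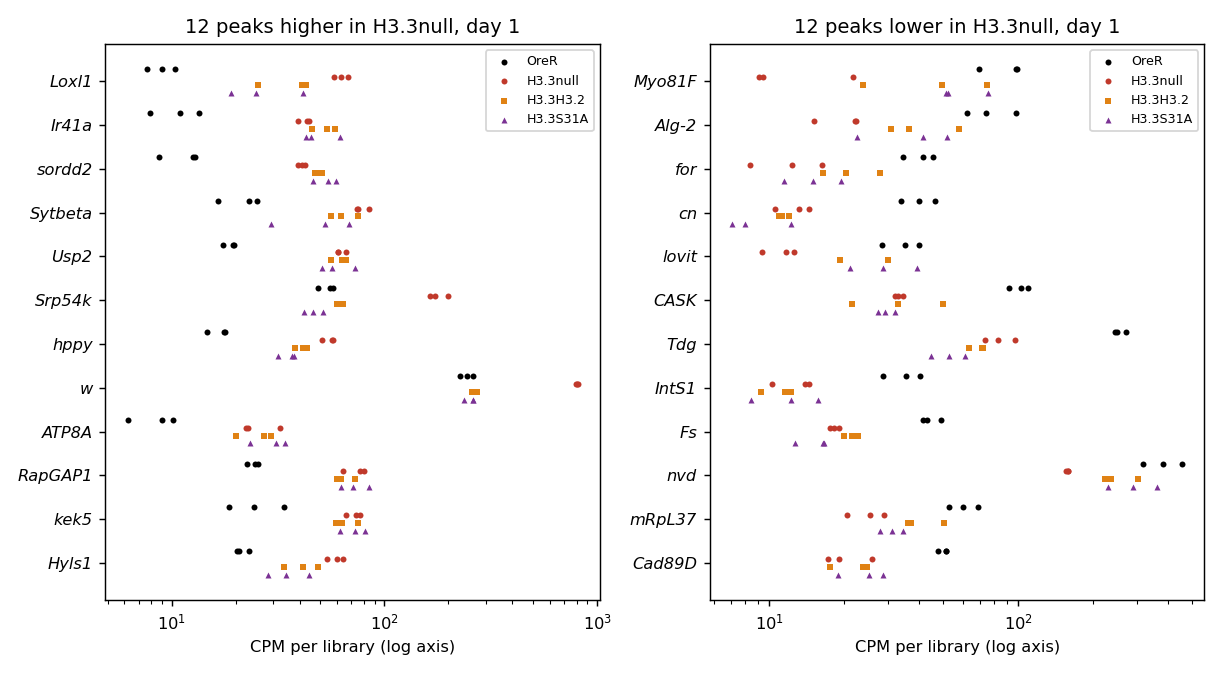
Normalised read count in each day 1 library (horizontal log axis, CPM) of the 12 higher (left) and 12 lower (right) peaks with the largest fold among named protein-coding genes, 1 row per gene and 3 points per genotype. Black is OreR, red H3.3null, orange H3.3H3.2 and purple H3.3S31A. At Srp54k and w the H3.3null libraries stand alone, while at Ir41a and Tdg all 3 altered genotypes stand apart from OreR.

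A further 2 losses were among the smallest p on summed counts. The peak near lncRNA:CR41352 at X:22917877-22918464, on pericentromeric X, fell from 122, 119 and 123 CPM to 24.3, 19.99 and 28.2 CPM (log2 fold change -2.33 ± 0.12, SE; adjusted p = 3.34e-17), while H3.3H3.2 and H3.3S31A were at 116 ± 4.51 and 125 ± 13.97 CPM. At CG1894 the peak at 3R:28484257-28486812 fell from 639.8, 782 and 724 CPM to 133, 153 and 155 CPM (log2 fold change -2.28 ± 0.11, SE; adjusted p = 4.46e-19), with 145 ± 4.52 CPM (H3.3H3.2) and 142 ± 2.07 CPM (H3.3S31A).

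Gene groups were counted over peaks not set apart and are read beside the 12% higher and 9.74% lower over all such peaks. No test of the groups was made. The median log2 fold change of the 26 lists ran from -0.18 in germline markers to 0.24 in haemocyte and tracheal markers, against -0.01 over all peaks not set apart. The ecdysone response list had 41 of 184 peaks higher (22.3%) and 12 lower (6.52%), but 23 of the 41 lay in Hr4 and Eip75B, and without these genes 18 of 136 were higher (13.2%) and 12 lower (8.82%). Of the ecdysone receptor gene EcR, looked at after its values were seen, 2 of 20 peaks were higher and 1 lower. The 7 peaks of br, an ecdysone-induced zinc finger factor, were split, with 3 higher and 3 lower. Hr51, a nuclear receptor of mushroom body neurons, fell at 2R:15339533-15339867 from 91.4, 71.4 and 68.7 CPM to 41.7, 39.1 and 38.5 CPM (log2 fold change -0.95 ± 0.14, SE; adjusted p = 1.33e-06).

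Lists of neuronal function lay near or below these shares, learning and memory signalling apart. Synaptic vesicle and active zone genes had 19 of 145 peaks higher (13.1%) and 11 lower (7.59%), transmitter synthesis, transport and receptor genes 11 of 121 higher (9.09%) and 4 lower (3.31%), and voltage-gated and potassium channel genes 10 of 109 higher (9.17%) and 8 lower (7.34%). Neuropeptide and receptor genes had 2 of 47 higher and 2 lower, and learning and memory signalling genes 19 of 115 higher (16.5%) and 6 lower (5.22%). Leaving out 1 library moved several of these counts: without OreR replicate 2, 11 synaptic peaks were higher and 7 lower, and 7 were lower without H3.3null replicate 2. Without OreR replicate 3, 12 learning and memory peaks were higher and 3 channel peaks lower, and without H3.3null replicate 1, 7 transmitter peaks were higher and 2 channel peaks lower. Without H3.3null replicate 3, 3 learning and memory peaks and 4 channel peaks were lower. The nicotinic acetylcholine receptor subunit gene nAChRalpha1 rose from 38.5, 38.6 and 47.9 CPM to 91.3, 95.5 and 94.8 CPM at 3R:24414567-24415327 (log2 fold change 1.17 ± 0.13, SE; adjusted p = 5.89e-09), with H3.3H3.2 and H3.3S31A at 41.5 ± 9.26 and 43.04 ± 8.32 CPM. Of the 4 peaks of nAChRalpha1, 2 were higher and 1 lower. Ca-beta, a calcium channel subunit gene, had a log2 fold change of 1.08 ± 0.12 (SE) at 2L:11199981-11200831, beside 1.09 in H3.3S31A and 1.03 in H3.3H3.2. Snap25, a SNARE gene on pericentromeric 3L, had 7 of 17 peaks lower and 2 higher, and at 3L:24265663-24266140 fell from 48.7, 57.1 and 50.98 CPM to 23.004, 26.7 and 22.4 CPM (log2 fold change -1.12 ± 0.21, SE; adjusted p = 0.000143). Ddc, the aromatic amino acid decarboxylase of dopamine and serotonin synthesis, fell at its only peak from 56.6, 55.5 and 52.4 CPM to 34.6, 37.1 and 35.8 CPM (log2 fold change -0.61 ± 0.13, SE; adjusted p = 0.000378).

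Wiring genes of the DIP, dpr, beat and side families had 12 of 116 peaks higher (10.3%) and 9 lower (7.76%), and 7 of the 12 were in beat-Ib. These counts leave out DIP-lambda, whose 120 peaks in a run were set apart by their calls. Over all peaks of the list, 109 of 236 were higher (46.2%), with a median log2 fold change of 0.25. The 9 lower peaks became 4 without OreR replicate 2 or H3.3null replicate 1 and 3 without H3.3null replicate 2 or 3. A side-VI peak at 3R:11004202-11004653 fell by 0.92 on the log2 scale in H3.3null (adjusted p = 4.37e-06), with -1.32 in H3.3S31A and -1.11 in H3.3H3.2.

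Chromatin regulators had 15 of 98 peaks higher (15.3%) and 7 lower (7.14%), the latter 4 without OreR replicate 1. Kdm4B, a histone demethylase gene, rose from 130.3, 138 and 114 CPM to 201, 191 and 181 CPM at 2R:13191248-13192232 (log2 fold change 0.59 ± 0.09, SE; adjusted p = 2.49e-06), and mod(mdg4), an insulator protein gene, fell from 88.3, 74.9 and 90.95 CPM to 46.5, 35.7 and 43.4 CPM at 3R:21369226-21369825 (log2 fold change -1.02 ± 0.15, SE; adjusted p = 2.10e-06). Of the 4 peaks of mod(mdg4), 2 were lower and 1 higher. Of 9 peaks of H3.3 deposition and histone chaperone genes, 1 was higher and 1 lower. The higher one was at Daxx, an H3.3 chaperone gene, at 242, 210.0 and 203 CPM in OreR and 284, 279 and 253 CPM in H3.3null (log2 fold change 0.32 ± 0.09, SE; adjusted p = 0.00887), and it was not called without OreR replicate 3 (0.27, adjusted p = 0.0568). Developmental and neuronal identity factors had 27 of 188 peaks higher (14.4%) and 22 lower (11.7%), the latter 12 without OreR replicate 1, 14 without OreR replicate 2 and 11 without H3.3null replicate 1. On summed counts, set-apart peaks included, 9 of 68 genes of this list were higher and 13 lower. Over all genes 11.2% were higher and 7.60% lower. Among Hox genes, 4 of 26 peaks were higher and 2 lower, and 3 of the higher ones lay in Scr, which specifies labial and anterior thoracic segments. The Scr peak at 3R:6827205-6827667 rose from 18.3, 33.2 and 28.5 CPM to 59.2, 51.4 and 60.2 CPM (log2 fold change 1.08 ± 0.15, SE; adjusted p = 9.01e-07), and was at 21.6 ± 0.972 CPM in H3.3S31A and 37.5 ± 1.05 CPM in H3.3H3.2.

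Cytosolic ribosomal protein genes had 3 of 55 peaks higher and 3 lower (5.45% each), mitochondrial ribosome and respiratory chain genes 4 of 44 higher and 3 lower, and proteasome subunit genes 2 of 12 higher and 0 lower. A peak at RpS23, a ribosomal protein gene that holds mir-308, rose from 41.1, 57.8 and 61.03 CPM to 143, 96.1 and 109.6 CPM (log2 fold change 1.11 ± 0.12, SE; adjusted p = 7.29e-09). Insulin, TOR and longevity genes had 6 of 60 higher and 4 lower, with 1 higher and 1 lower without OreR replicate 2, 3 higher without OreR replicate 3 and 2 higher without H3.3null replicate 1. One of the higher peaks, at 3R:14088057-14088601 and 79 bp from foxo, the transcription factor of insulin signalling, read 50.4, 45.8 and 36.9 CPM in OreR and 101, 75.5 and 94.1 CPM in H3.3null (log2 fold change 1.03 ± 0.14, SE; adjusted p = 4.38e-07). Heat shock genes had 3 of 21 higher and 1 lower, innate immune genes 1 of 27 higher and 3 lower, and circadian clock genes 2 of 52 higher and 3 lower. On summed counts, set-apart peaks included, 0 of 20 clock genes were higher and 4 lower. Several list counts of 4 or fewer rested on single libraries, the 3 lower clock peaks for example being 0 without OreR replicate 1.

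Markers of other cell types were counted in the same way. Glia markers had 2 of 15 peaks higher and 0 lower, photoreceptor markers 3 of 18 higher and 0 lower, fat body markers 1 of 6 higher, muscle markers 1 of 11 lower, and germline markers 1 of 12 higher and 3 lower. The summed level of the 9 glia genes with peaks was 992 to 1073 CPM in OreR and 1045 to 1069.8 CPM in H3.3null. Summed levels are over all peaks, set-apart ones included. For the 10 photoreceptor genes with peaks the sum was 1188 to 1357 CPM in OreR and 1292 to 1339 CPM in H3.3null. The haemocyte and tracheal list had 10 of 25 peaks higher and 2 lower, and 9 of the 10 were in ush, which is also active in other tissues. Without ush, 1 of 11 was higher and 2 lower. The 8 genes of this list with peaks, ush included, summed to 1735 to 1854 CPM in OreR and 2192 to 2269.8 CPM in H3.3null. A sum without ush was not made. The 4 fat body genes with peaks, of 17 in the list, were at 532 to 585 CPM in OreR and 603 to 645 CPM in H3.3null. These ranges did not overlap, which held for 37.3% of all single peaks too. Muscle genes were at 963 to 1046 CPM in OreR and 934 to 983 CPM in H3.3null. Germline genes were at 647 to 812 CPM in OreR and 710 to 765 CPM in H3.3null. The part of cell make-up in the calls was not tested. Visible marker and stock construction genes had 7 of 31 peaks higher (22.6%) and 2 lower (6.45%).

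**Figure D5:**
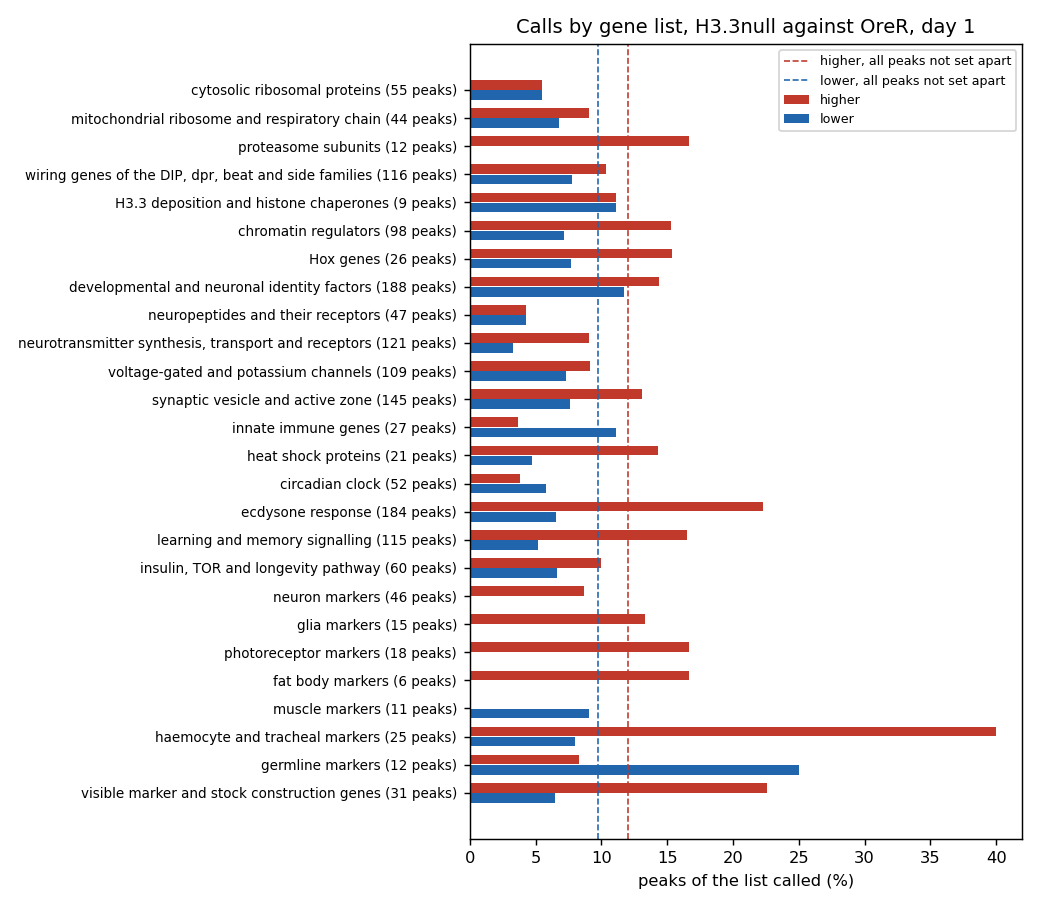
Share of the peaks of each gene list called higher (red) or lower (blue) in H3.3null than in OreR at day 1, in percent, for peaks not set apart, with the number of peaks of each list in brackets. Dashed lines are the shares over all peaks not set apart, 12% higher and 9.74% lower, and the haemocyte and tracheal list, with 40% higher, is mostly ush.

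Repeats and the other loci set apart are described here, followed by the eye colour genes. The largest losses were at Stellate, a tandem repeat on the X chromosome whose relatives on the Y chromosome silence it in males. The peak over the main Stellate cluster at X:14046693-14058848 read 7148, 8695 and 8399 CPM in OreR and 241, 253 and 271 CPM in H3.3null (log2 fold change -4.99 ± 0.16, SE; adjusted p = 1.38e-24), without overlap. H3.3H3.2 and H3.3S31A were in between, at 874 ± 14.6 and 791 ± 57.7 CPM. The adjacent peaks at X:14059302-14061610 and X:14058920-14059245 had log2 fold changes of -4.49 ± 0.12 and -5.87 ± 0.23 (SE), and Ste12DOR, a separate copy, one of -3.73 ± 0.11 (SE). Stellate copies share sequence, so reads cannot be given to 1 copy, and a lower copy number cannot be told apart from lower accessibility.

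Of 90 peaks overlapping transfer RNA genes, 22 were higher (24.4%) and 2 lower (2.22%), and of 21 peaks overlapping small nucleolar, nuclear or Cajal body RNA genes 11 were higher (52.4%) and 1 lower, beside 14.1% higher and 10.6% lower over all peaks. One of these, in the ribosomal protein gene RpS9 at 3L:9509868-9510743, rose from 59.6, 57.4 and 67.02 CPM to 141, 121 and 128 CPM (log2 fold change 1.08 ± 0.10, SE; adjusted p = 8.53e-11), with H3.3H3.2 and H3.3S31A at 68.2 ± 2.257 and 58.3 ± 5.44 CPM. The tRNA:Leu-CAA-2-3 peak at 3R:23601338-23601824 fell from 101, 95.3 and 88.8 CPM to 57.9, 50.1 and 50.3 CPM (log2 fold change -0.85 ± 0.09, SE; adjusted p = 8.10e-09).

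Within 250 kb of His3.3A or His3.3B, 12 of 84 peaks were higher and 10 lower (14.3% and 11.9%), near the 14.1% and 10.6% over all peaks. Besides the peaks of the targets, c11.1 rose at X:9283051-9283262 (log2 fold change 1.02 ± 0.16, SE; adjusted p = 5.40e-06) and Rtnl1, a reticulon gene, fell at 2L:5006988-5007396 by 0.70 on the log2 scale (adjusted p = 0.000454).

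Runs of calls covered 7 stretches. The first 3 adjoin near the centromere of 2R, at 122436-716442, 721404-1166877 and 1175269-1432231, and 99 of 129, 83 of 99 and 63 of 81 peaks were higher there. DIP-lambda, a surface receptor gene of the DIP family, held 120 peaks of the first stretch, 97 of them higher, and rl, the ERK kinase gene, held 15 peaks of the second, 12 of them higher. The median log2 fold changes of these stretches were 0.64, 0.71 and 0.68 in H3.3null, beside 0.89, 0.90 and 0.88 for H3.3H3.2. In H3.3S31A they were 0.83, 0.76 and 0.71. Summed over DIP-lambda, OreR read 12193, 15704 and 16513 CPM and H3.3null 19041, 19406 and 20935 CPM (log2 fold change 0.42 ± 0.12, SE; adjusted p = 0.0251). That call was lost without OreR replicate 1 (0.30, adjusted p = 0.123), without H3.3null replicate 2 (0.43, adjusted p = 0.0505) and without H3.3null replicate 3 (0.38, adjusted p = 0.0890).

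The other higher stretch, 2R:13957328-14057295, lay on the arm and held mam, the gene of the Notch coactivator Mastermind, with 18 of its 23 peaks higher. Its peak at 2R:14004469-14005061 rose from 39.4, 34.9 and 39.5 CPM to 114, 109 and 114 CPM (log2 fold change 1.57 ± 0.11, SE; adjusted p = 3.07e-13). Over the stretch the median log2 fold change was 0.38 in H3.3null, -0.05 in H3.3S31A and 0.05 in H3.3H3.2. Summed over mam, OreR read 2679, 2638 and 2635 CPM, H3.3null 4059, 3734 and 3825 CPM, H3.3H3.2 2757 ± 34.3 CPM and H3.3S31A 2521 ± 14.4 CPM (log2 fold change of H3.3null 0.55 ± 0.04, SE; adjusted p = 6.47e-14).

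The 3 lower stretches were all near centromeres. On X:21865020-22207445, 65 of 79 peaks were lower with a median log2 fold change of -0.70, beside -0.02 in H3.3S31A and -0.04 in H3.3H3.2. Its peak at X:22011278-22012142 fell from 94.3, 105 and 121 CPM to 34.6, 34.4 and 41.8 CPM (log2 fold change -1.53 ± 0.11, SE; adjusted p = 3.96e-13). On 3L:26158540-26826554, 38 of 54 peaks were lower, with a median of -0.60 beside -0.37 (H3.3H3.2) and -0.32 (H3.3S31A). On 3R:2227368-2500839, 36 of 46 peaks, all in Myo81F, were lower, with a median of -0.52 beside -0.39 (H3.3H3.2) and -0.37 (H3.3S31A).

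Some intervals were nearly empty in one genotype. At 3L:40021-40762, near the left end of 3L, OreR had 0 counts in each library and H3.3null read 193, 197 and 190.1 CPM, at least 258-fold above a floor of 3 counts per library. At 3L:26609-27217 nearby, the OreR libraries held 0, 2 and 0 counts and H3.3null read 152, 161 and 134 CPM. Both intervals were read in H3.3H3.2 as well, at 109 ± 46.5 and 91.3 ± 40.4 CPM, and had 0 CPM in each H3.3S31A library. At 3R:3912146-3912501 the OreR libraries held 2, 2 and 2 counts and H3.3null read 44.5, 41.8 and 43.4 CPM. Peak counts do not separate missing sequence from closed chromatin.

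The eye colour genes that fly stocks commonly carry in altered form also differed. At w, the white gene of a pigment precursor transporter, the peak at X:2789752-2793256 rose from 228, 262 and 244 CPM to 799.8, 809 and 805 CPM (log2 fold change 1.72 ± 0.10, SE; adjusted p = 1.70e-16), although it also overlaps kirre and CG32795, with H3.3H3.2 and H3.3S31A at 264 ± 6.83 and 253 ± 15.3 CPM. At the second w peak, X:2796057-2796767, OreR read 44.5, 34.6 and 37.8 CPM and H3.3null 117, 125 and 129 CPM (log2 fold change 1.67 ± 0.18, SE; adjusted p = 7.38e-08). There H3.3H3.2 was at 0.140 ± 0.243 CPM and H3.3S31A at 0 CPM in each library. At cn, the cinnabar gene of pigment synthesis, the peak at 2R:7783126-7783314 fell from 39.95, 33.7 and 46.4 CPM to 13.1, 14.4 and 10.5 CPM (log2 fold change -1.66 ± 0.19, SE; adjusted p = 1.05e-08), with 9.07 ± 2.71 CPM in H3.3S31A and 11.4 ± 0.550 CPM in H3.3H3.2.

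Day 10 libraries of the same genotypes share no sample with those of day 1 and were used to see how far the day 1 calls recur. On all peaks, 2732 of 11145 were called in H3.3null against OreR at day 10 (24.5%), 1729 higher (15.5%) and 1003 lower (9%). Of the 1256 higher day 1 calls not set apart, 854 were also called higher at day 10 (68.0%), against 13.5% of all such peaks, and 0 were called lower. Their median log2 fold change at day 10 was 0.48. Of the 1016 lower calls, 454 were called lower at day 10 (44.7%), against 8.30% of all such peaks, and 3 were called higher, with a median log2 fold change of -0.33. The genotypes are the same at both ages, so recurrence does not separate H3.3 from the stock. Among the pericentromeric losses, 192 of 379 were called lower at day 10. By gene, 12 of 13 Hr4 calls, 9 of 9 ush calls, 7 of 8 Ptp4E calls, 7 of 7 beat-Ib calls and 6 of 10 Eip75B calls were called again.

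The difference between the day 10 and the day 1 effect was itself tested, and 0 of 11145 peaks (0%) passed in edgeR's quasi-likelihood test, the smallest adjusted p being 0.0571, while 985 peaks had an unadjusted p under 0.05. No other tool was run on this difference.

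The day 10 libraries also allowed H3.3null to be set against the other altered genotypes. Of the 1256 higher day 1 calls, 630 (50.2%) were higher in H3.3null than in the day 10 mean of H3.3S31A and H3.3H3.2, against 11.4% of all peaks not set apart. At day 10, 1787 peaks not set apart (17.1%) were called in that comparison and 1014 (9.73%) between the mean and OreR. The mean was itself above OreR at day 10 in 285 of them (22.7%), against 5.05%. Of the 1016 lower day 1 calls, 182 (17.9%) were lower in H3.3null than in that mean, against 5.77%, and in 296 (29.1%) the mean was below OreR, against 4.68%. In the day 1 libraries, 1735 peaks not set apart differed between H3.3null and that mean (16.6%), 1051 higher (10.1%) and 684 lower (6.56%). Against the same day 1 OreR libraries, H3.3H3.2 had 907 such calls (8.70%), 492 higher (4.72%) and 415 lower (3.98%). H3.3S31A had 862 (8.27%), 427 higher (4.10%) and 435 lower (4.17%). These comparisons share libraries with the one described here, so the totals of their calls were not counted against each other.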

How the data were processed

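The deposited table holds read counts per peak over a single peak set, as the authors made it. The submitters' processing notes name the dm6 build, STAR 2.7.7a, SAMtools 1.9, bedtools 2.26, deepTools 3.2.0, featureCounts in Subread 2.0.1 and DESeq2 1.34.0 without their roles. The peak caller, duplicate removal and read shifting are not given in the sources used here.

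The 24 libraries were fitted together in edgeR 4.0.16 (R 4.3.3) with TMM scaling, a coefficient per group and robust quasi-likelihood, and called at an adjusted p under 0.05. The filter on low counts removed 0 peaks. The fit has 16 residual degrees of freedom, a common biological coefficient of variation of 8.96% and a median SE of 0.12 (log2). It was also run on counts simulated from the OreR day 1 means and the fitted spreads. That run shares the assumptions of the model, so it does not show how well they hold for these data. Gene names come from the RefSeq table of Release 6, and 81.2% of peaks were assigned to a gene. Pericentromeric means 2L from 22 Mb, 2R to 6 Mb, 3L from 23 Mb, 3R to 5 Mb and X from 22 Mb.

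Peaks were named by rule: those of His3.3A and His3.3B, the 4 largest called peaks in each direction of each set-apart class, the 12 largest folds and the 6 genes with most calls in each direction, the 2 smallest p of each of 26 gene lists, and the 6 smallest p on summed counts. Names outside the rule are given as such or stand for a count. The members and lists were chosen with earlier results of these data known. DESeq2 1.42.0 and other settings were tried as alternatives.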

Additional observations from a re-analysis of the deposited data

How the results depend on the processing

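The count of peaks called in H3.3null against OreR at day 1 stayed within 1.5 times of the reported 1572 higher and 1185 lower under the alternatives run, a minimum fold apart. DESeq2's Wald test gave 1551 and 1250, and DESeq2's size factors 1521 and 1231. Scaling by library totals alone gave 1718 and 1065, and the 2 groups fitted alone 1469 and 1194. A fit without the set-apart peaks gave 1246 and 945, beside 1256 and 1016 for the same 10426 peaks in the main fit. A minimum change of 2-fold left 198 higher and 158 lower peaks, and 50 higher and 24 lower genes on summed counts, since most calls are small. Leaving out each of the 6 libraries in turn gave 1298 to 1455 higher and 825 to 1188 lower peaks, and 404 to 495 higher and 234 to 312 lower genes.

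Of 311 named values, 0 called ones changed direction and 41 lost their call without some library. The labels do not say that replicate numbers mark shared animals or days. Same-numbered libraries had correlations of their deviations of 0.24, -0.01 and 0.18, and differently numbered ones of -0.25 to 0.16. The numbers were not taken to pair libraries in the main fit, and whether they mark a shared structure was not tested. With a replicate block, 1587 peaks were higher and 1221 lower, 516 genes higher and 356 lower, and no named call was lost, while 3 values were newly called. At this depth the median SE of a log2 fold change was 0.12, so changes of that size were not detectable. No genome was used, so base composition and mappability were not tested.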
